A study of Mus musculus with 20 samples.

Results

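Collagen genes were followed through development in 2 auditory tissues of the mouse, the cochlea and the superior olivary complex (SOC), the latter a cluster of auditory nuclei in the brainstem. Members were all genes of the deposited count table whose symbol consists of Col, a type number, the letter a and a chain number, which gave 43 of 22734 genes. They fell into 11 fibrillar collagens, 9 FACIT collagens (fibril-associated collagens with interrupted helices), 6 type IV chains, 5 type VI chains, 4 transmembrane collagens, 3 network-forming collagens of types VIII and X, 2 multiplexins, the anchoring fibril collagen Col7a1, and Col26a1 and Col28a1. A set of 7 members that cartilage is known to make (Col2a1, Col9a1, Col9a2, Col9a3, Col10a1, Col11a1 and Col11a2) was also read as a cartilage list that crosses these classes. All animals were wild type and untreated. The cochlear libraries held the pooled sensory epithelium of C57BL/6JOlaHsd mice of both sexes, with 3 libraries at each of embryonic day 16 (E16), birth (P0) and postnatal day 16 (P16), an age after hearing onset. The SOC libraries held tissue pooled from several C57Bl6/J animals, with 4 libraries for E16, 4 for P0 and 3 for P16. At E16 the SOC was cut from sections of whole frozen heads, and at P0 and P16 from brains taken out of the skull. Substrain, library kit and sequencer differed between the organs, so levels were not tested between them and only changes with age within an organ, and the difference of those changes, were.

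Collagens are proteins of the extracellular matrix whose chains wind around each other into a rope-like helix. Fibrillar collagens pack into the banded fibrils of bone, cartilage, tendon and other connective tissues, and FACIT collagens sit on the surface of such fibrils. Type IV collagen forms the sheet of basement membranes, type VI forms beaded filaments around cells, and types VIII and X form open networks. In the cochlea, types II, IX and XI are known as fibril components of the tectorial membrane and of the spiral ligament, and inherited defects of these types or of the type IV chains Col4a3, Col4a4 and Col4a5 are known causes of hearing loss. In the brain, collagens are made mostly by the vessel wall and the meninges, while Col19a1 and Col25a1 are also made by neurons.

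Library totals ranged from 20843679 to 33109083 counts. Levels are given as CPM, counts scaled to the total of the library, in the order of the replicate numbers, and a change is a log2 fold change from edgeR's quasi-likelihood test with its standard error. A gene was called higher or lower at an adjusted p under 0.01, a change of more than 2.5-fold and no overlap between the libraries of the ages compared. The table appeared to have been joined from 4 tables of their own, which held the 9 cochlear libraries, SOC E16 and P0 replicates 1 to 3, SOC E16 and P0 replicate 4 with SOC P16 replicates 1 and 2, and SOC P16 replicate 3. A gene left out of one of these tables was entered as 0, which allows up to 20 counts, or 0.604 to 0.96 CPM depending on the library, and any other 0 allows 3 counts, or 0.0906 to 0.144 CPM, both for counting error only. Hair cell markers summed to 105 to 642 CPM in the cochlea and 33.1 to 121 CPM in the SOC, and neuronal markers to 393 to 2583 and 3976 to 6943 CPM, while Slc26a5, Tmc1 and Ocm, markers of hair cells, were at 0 in every SOC library.

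Collagens set apart 3 SOC libraries, each from another joined table than most of its group. Collagen levels in SOC E16 replicate 4 were at a median of 0.681 times the mean of the group's other libraries, and 29 of 41 members were lowest there (70.7%, against 41.4% of all genes). In SOC P0 replicate 4 the median ratio was 0.610, and 35 of 41 members were lowest (85.4%, against 45.4% of all genes). In SOC P16 replicate 3 the median ratio was 2.35, and 36 of 39 members were highest (92.3%, against 53.5% of all genes). The cochlear libraries lay closer together, with cochlea E16 replicate 2 highest at a median ratio of 1.2. Counts of calls and summed levels in the SOC are therefore also given without these libraries, and the level in each library is shown for the genes described.

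**Figure D1:**
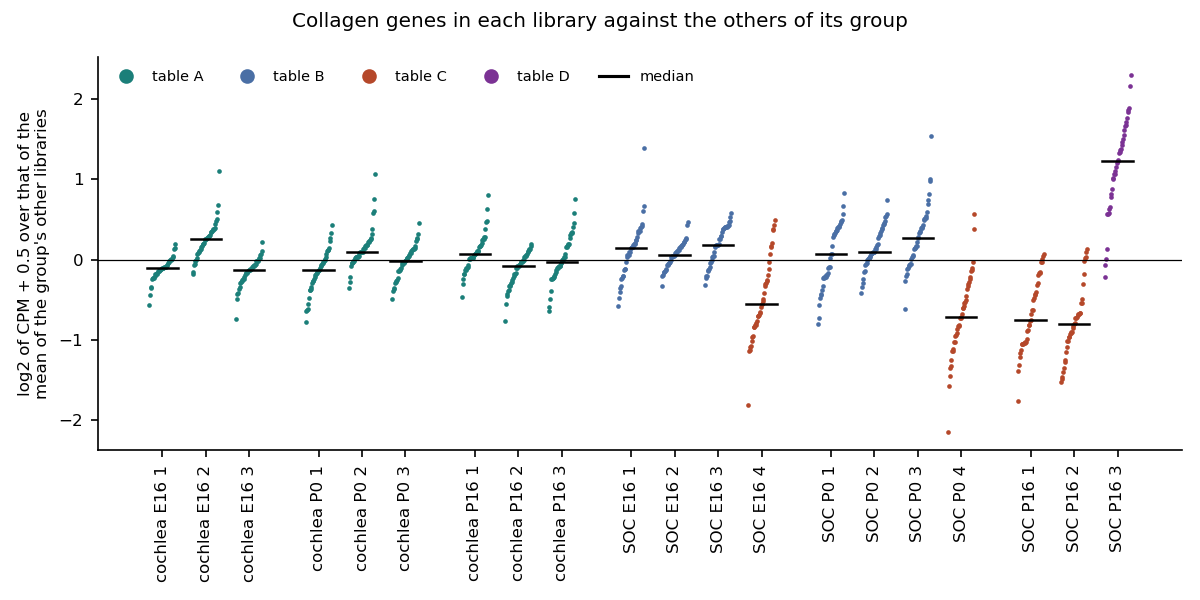
Level of each collagen gene in each library relative to the mean of the other libraries of its group, as log2 of (CPM + 0.5), with 1 point per gene of at least 1 CPM in the group, colours for the joined table a library came from and a line at the median. SOC E16 replicate 4 and SOC P0 replicate 4 lie below the other libraries of their groups, and SOC P16 replicate 3 lies above.

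Collagen transcripts were most abundant at P0 in the cochlea and at E16 in the SOC. Summed over all members, the cochlea held 15617, 18137 and 15972 CPM at E16, 25121, 28227 and 27930 CPM at P0 and 13492, 11448 and 12647 CPM at P16. The SOC held 25187, 23358, 25730 and 15895 CPM at E16, 2162, 2159, 2180 and 1241 CPM at P0 and 622, 603 and 1531 CPM at P16. Every cochlear P0 library was above every E16 and P16 library, and all SOC libraries of P0 and P16 lay below those of E16, with SOC P16 replicate 3 inside the range of the P0 libraries. The share of all counts in the cochlea was 1.66% ± 0.136 (SD, n = 3) at E16, 2.71% ± 0.171 at P0 and 1.25% ± 0.103 at P16. The share in SOC libraries was 2.25% ± 0.455 (SD, n = 4) at E16, 0.194% ± 0.0463 (n = 4) at P0 and 0.0919% ± 0.0530 (n = 3) at P16. In tissue pools of this kind, fewer cells of a type and less RNA per cell cannot be told apart. In the cochlea 40, 41 and 42 members exceeded 0.5 CPM in at least 3 libraries at the successive ages, and in the SOC 42, 43 and 38 did. Col6a4 was at 0 in all 9 cochlear libraries. The highest mean fell at E16 for 6, at P0 for 22 and at P16 for 14 of the 42 members with counts in the cochlea, and at E16 for 37, at P0 for 2 and at P16 for 4 of the 43 in the SOC.

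**Figure D2:**
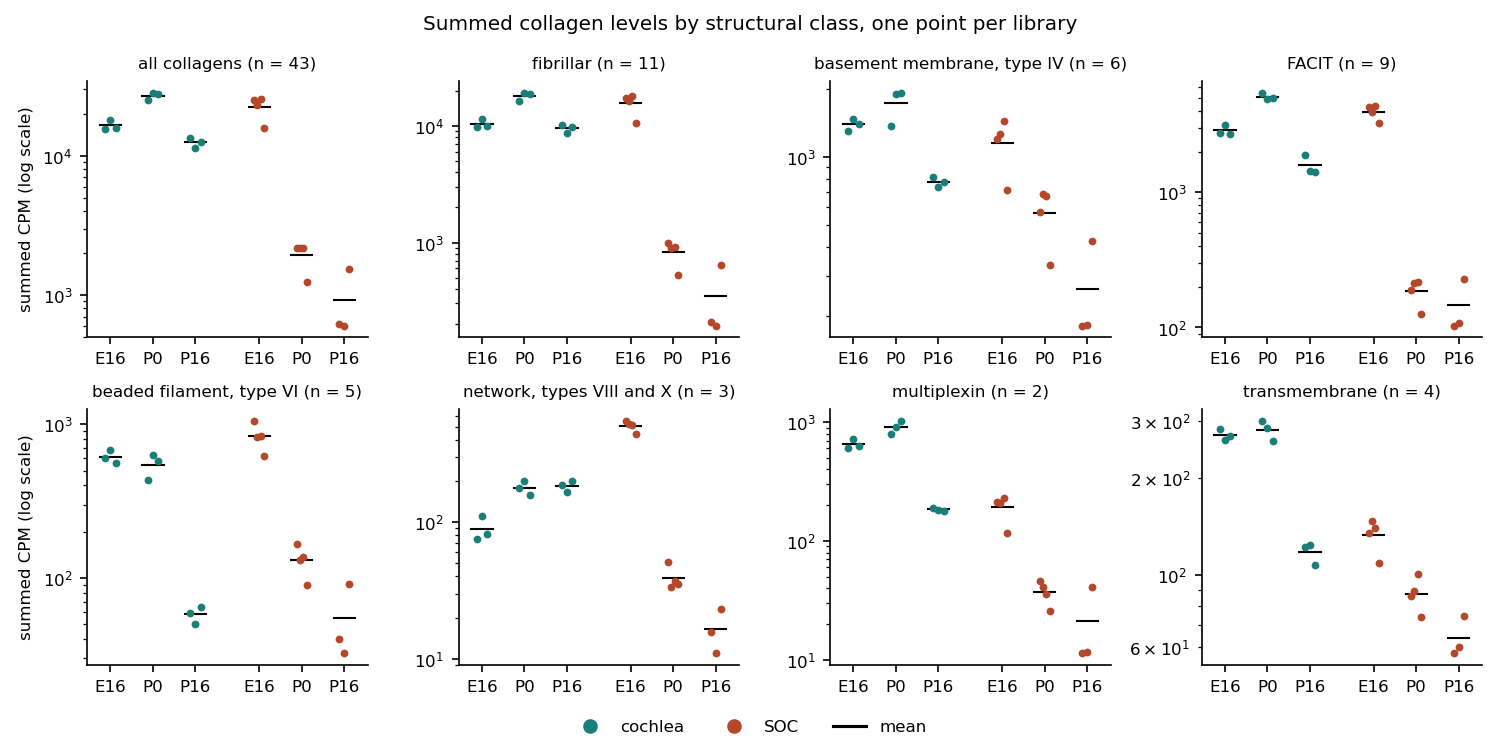
Summed CPM of all collagens and of 7 classes in each library (points) with the group mean (lines), on a log axis whose range differs between panels, by organ and age. In the cochlea the sums of all collagens peaked at P0 (mean 27093 CPM), while in the SOC they were highest at E16 (mean 22543 CPM) and lowest at P16 (mean 919 CPM).

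Fibrillar collagens took the largest share of the summed level in all groups of libraries. Their mean sums at the 3 successive ages were 10387, 18118 and 9568 CPM in the cochlea and 15633, 831 and 346 CPM in the SOC, where the P16 mean was 201 CPM without replicate 3. FACIT collagens followed in the cochlea with 2873, 5079 and 1581 CPM, while in the SOC type IV chains (1158, 568 and 262 CPM) exceeded the FACIT sum (3947, 187 and 147 CPM) from P0 on. Without replicate 3 the SOC means at P16 were 181 CPM for type IV, 105 CPM for FACIT, 36.2 CPM for type VI, 11.5 CPM for the multiplexins and 613 CPM for all collagens. For a comparison per kb of exon, all annotated exons of a gene were merged over its transcripts. Such a length (12426 bases for Col1a2, 6874 for Col11a2) can exceed that of the transcript expressed. The order between genes therefore depends on the annotation. On this measure Col2a1 led in the cochlea at E16 (485 ± 54.0 CPM per kb, SD, n = 3) and at P0 (1067 ± 120), each time followed by Col9a2 (289 ± 34.6 and 547 ± 15.6). At P16 Col11a2 led the cochlea (341 ± 25.7 CPM per kb) ahead of Col2a1 (259 ± 39.5) and Col1a2 (170 ± 12.1), and Col9a3 (127 ± 14.1), Col9a2 (124 ± 13.2) and Col1a1 (111 ± 27.3) came next within their spread. The SOC at E16 was also led by Col2a1 (632 ± 198 CPM per kb, n = 4). At P0 the type IV chain Col4a1 was first there (45.8 ± 12.8) and Col3a1 second (30.7 ± 6.52), with overlapping spreads. At P16 Col4a1 (20.2 ± 10.6, n = 3), Col9a3 (16.9 ± 9.15) and Col11a2 (11.4 ± 8.09) did not differ beyond their spread.

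In the cochlea, about as many collagen genes were called as not between E16 and P16. From E16 to P0, 4 of 42 members were called higher (background over all 21829 genes tested 4.57%) and 0 lower (background 3.4%), the latter also 0 by DESeq2. At an unadjusted p under 0.05, edgeR had 22 higher and 4 lower. The count of 4 was 7 without cochlea E16 replicate 2, 11 with a fold over 2 and 1 in a test against 2.5-fold (glmTreat). The 4 members called higher were Col11a2, Col28a1, Col4a3 and Col4a4. Between P0 and P16, 6 were higher (background 14.5%) and 17 lower (background 10.4%), and from E16 to P16 9 were higher (background 14.8%) and 11 lower (background 9.51%). The median change of the members was 0.51, -0.79 and -0.36 on the log2 scale in these comparisons, against medians of 0.03, 0.01 and 0.01 over all genes.

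In the SOC, most collagen genes fell before birth. From E16 to P0, 30 of 43 members were called lower (background over all 17372 genes tested 6.3%) and 0 higher by edgeR or DESeq2 (background 3.14%, and 2 higher at an unadjusted p under 0.05), with a median change of -2.71 against -0.03 over all genes. From P0 to P16, 12 were lower (background 8.33%) and 1, Col20a1, higher (background 7.48%), with a median of -0.94 against -0.06. Over the whole span from E16 to P16, 34 were lower (background 13.8%) and 4 higher (background 11.7%), with a median of -3.38 against -0.14. The count from P0 to P16 depended on single libraries, since 22 members were lower without SOC P16 replicate 3 (background 9.91%) and 7 without SOC P16 replicate 1. Without SOC P16 replicate 3 the change from E16 to P16 moved by over 1.5 times for 16 of the 38 called members, to -4.99 for Col1a2, -11.74 for Col2a1, -5.72 for Col3a1, -6.24 for Col5a1, -4.40 for Col6a1, -5.48 for Col6a6, -3.12 for Col7a1, -6.25 for Col9a2, -9.50 for Col10a1, -4.36 for Col11a2, -3.37 for Col13a1, -2.93 for Col15a1, -4.78 for Col16a1, -3.97 for Col18a1, -5.27 for Col26a1 and -6.40 for Col27a1. From P0 to P16 it did so for 8 of the 13 called members, to -2.67 for Col3a1, -2.98 for Col5a1, -2.31 for Col6a1, -2.59 for Col6a6, -2.24 for Col8a2, -2.42 for Col9a2, -2.01 for Col10a1 and -3.92 for Col26a1. With only replicates 1 to 3 of E16 and P0, an alternative chosen after seeing the data, 30 members were lower from E16 to P0, 17 from P0 to P16 and 34 from E16 to P16.

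**Figure D3:**
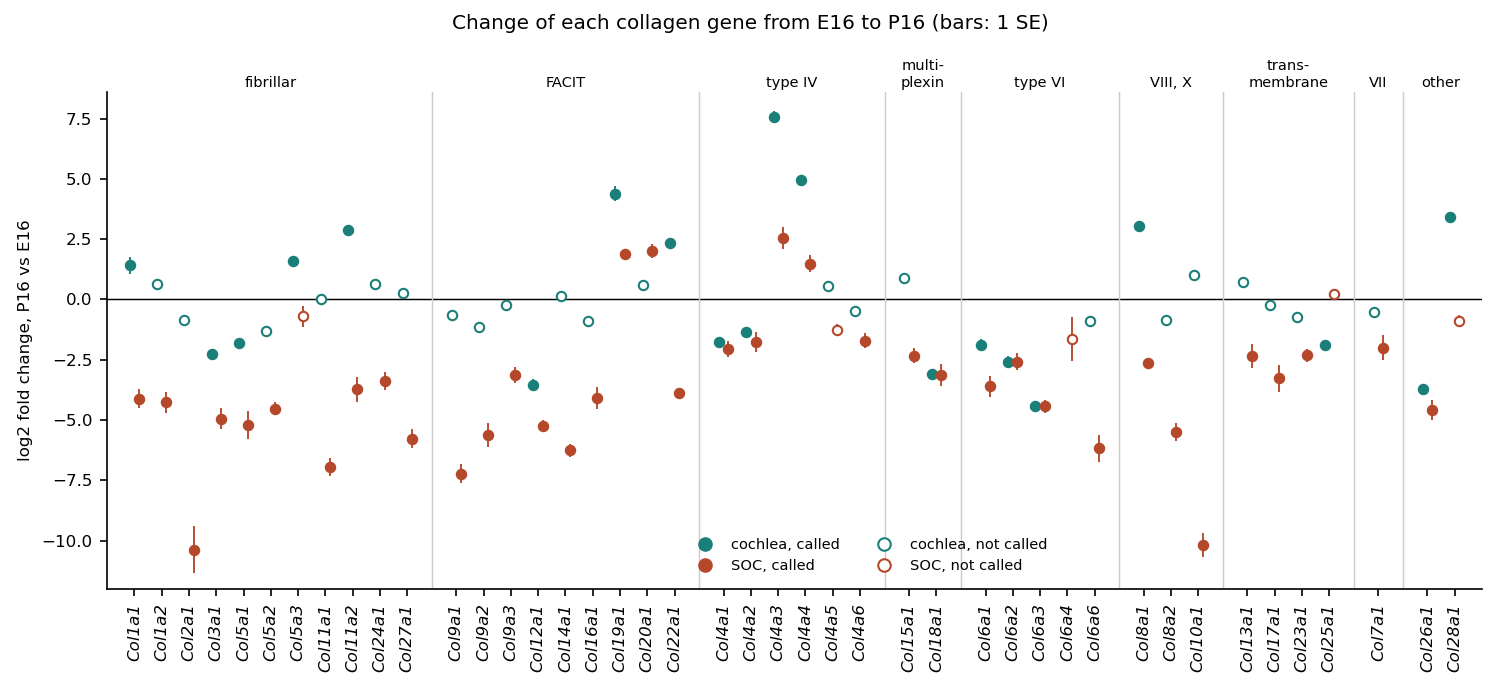
Log2 fold change from E16 to P16 of each collagen gene by class, in the cochlea and in the SOC, with bars of 1 SE, filled points for genes called changed and Col6a4 shown for the SOC only. Most SOC points lie far below 0 (34 of 43 called lower), while the cochlear points spread on both sides (9 called higher and 11 lower).

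The same direction from E16 to P16 was called in both organs for 13 members. Col4a3, Col4a4 and Col19a1 were higher in both, and Col3a1, Col4a1, Col4a2, Col5a1, Col6a1, Col6a2, Col6a3, Col12a1, Col18a1 and Col26a1 lower in both. Opposite directions were called for 4 members, Col1a1, Col8a1, Col11a2 and Col22a1, each of them with a cochlear rise and a fall in the SOC. The cochlear call of Col1a1 depended on single libraries, as given below. A further 20 members were called lower in the SOC alone, Col5a3 and Col28a1 higher in the cochlea alone, Col25a1 lower in the cochlea alone and Col20a1 higher in the SOC alone, and Col4a5 was called in neither organ. Whether those changes differed between the organs is given by the test of the difference reported after the classes.

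Of the 11 fibrillar collagens, 10 were lower in the SOC from E16 to P16 (90.9%, against 13.8% of all genes), with a median of -4.53. In the cochlea 3 were higher (Col1a1, Col5a3 and Col11a2, 27.3% against 14.8% of all genes), 2 lower (Col3a1 and Col5a1, 18.2% against 9.51%) and 6 not called, with a median of 0.26. Col1a1 and Col1a2 encode the chains of type I collagen, the main fibril of bone and tendon. Col1a1 (chr11:94936224-94953042, plus strand, GRCm38) stood at 218, 449 and 199 CPM at E16, 204, 463 and 237 CPM at P0 and 629, 623 and 936 CPM at P16 in the cochlea. In the SOC it stood at 863, 1191, 1207 and 911 CPM at E16, 103, 78.5, 92.9 and 35.7 CPM at P0 and 32.2, 31.8 and 87.5 CPM at P16. The cochlear P16 libraries all lay above the earlier ages, with replicate 2 of E16 and of P0 high in their groups, and the SOC libraries of P0 and P16 lay far below those of E16. Col1a1 rose in the cochlea from E16 to P16 by 1.41 ± 0.36 (SE, adjusted p = 0.00589) on the log2 scale and fell in the SOC, with a change of -4.11 ± 0.41 (SE, adjusted p = 2.67e-06). The cochlear call was lost without E16 replicate 1, E16 replicate 3, P16 replicate 2 or P16 replicate 3. Bone markers moved with it in the cochlea, since their summed level was 79.8 to 84.9 CPM at E16, 88.1 to 121 at P0 and 1087 to 1811 at P16, mostly from Spp1 (49.6, 66.4 and 1023 CPM on average), with Mepe at 0 at E16, and their part in the result was not tested.

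Its partner chain Col1a2 (chr6:4504814-4541544, plus strand) stood at 1369, 1587 and 1369 CPM at E16, 2161, 2664 and 2349 CPM at P0 and 2284, 2039 and 2009 CPM at P16 in the cochlea, where no change was called (0.62 ± 0.13 from E16 to P16). Its SOC levels were 2145, 2147, 2266 and 1387 CPM at E16, 272, 245, 249 and 125 CPM at P0 and 50.5, 44.9 and 164 CPM at P16, with every later library far below the E16 libraries and a change of -4.27 ± 0.44 (SE, adjusted p = 3.39e-06) from E16 to P16. Col3a1 (chr1:45311538-45349706, plus strand), the collagen of reticular fibres, stood at 1653, 1737 and 1772 CPM at E16, 1283, 1427 and 1396 CPM at P0 and 402, 338 and 281 CPM at P16 in the cochlea and at 3202, 2513, 2733 and 1978 CPM at E16, 381, 314, 285 and 227 CPM at P0 and 43.1, 32.6 and 139 CPM at P16 in the SOC. It was lowest at P16 in both organs without overlap. From E16 to P16 it fell in the cochlea with a change of -2.27 ± 0.15 (SE, adjusted p = 2.86e-07) and in the SOC with one of -4.94 ± 0.44 (SE, adjusted p = 1.06e-06). The mean log2 ratio of Col3a1 to Col1a1 in CPM, not scaled by length, shifted in the cochlea with age and was 2.67 at E16, 2.27 at P0 and -1.09 at P16. Col5a1 and Col5a2 form the type V collagen that sits within type I fibrils, and the minor fibrillar collagens Col24a1 and Col27a1 are known from bone and cartilage. Their cochlear changes from E16 to P16 were -1.81 for Col5a1, which was called lower, and -1.31, 0.64 and 0.26 for the other 3, which were not called. In the SOC the same 4 genes fell with changes of -5.19, -4.53, -3.38 and -5.77. Col5a3 rose in the cochlea from E16 to P16 by 1.60 ± 0.15 (SE, adjusted p = 5.59e-06) and was the fibrillar member not called in the SOC (-0.70 ± 0.42).

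Cartilage collagens had their highest cochlear mean at P0, except Col11a2, with overlap of the P0 and P16 libraries for Col10a1 and Col11a1. They fell together before birth in the SOC. Their summed level averaged 7919, 16995 and 6885 CPM at E16, P0 and P16 in the cochlea and 11252, 190.0 and 176 CPM in the SOC. Without replicate 4 the SOC means were 12716 and 221 CPM at E16 and P0, and without replicate 3 the P16 mean was 112 CPM. From E16 to P0 all 7 were lower in the SOC (background 6.3%) with a median of -5.34. In the cochlea 1 of 7, Col11a2, was called higher (background 4.57%) and the median was 1.15. Col2a1 (chr15:97975602-98004695, minus strand) encodes the type II fibril of cartilage and of the tectorial membrane. It stood at 4083, 5045 and 4330 CPM at E16, 8584, 10454 and 10542 CPM at P0 and 2710, 1994 and 2477 CPM at P16 in the cochlea. In the SOC it stood at 6982, 6104, 7107 and 3187 CPM at E16, 16.3, 22.6, 44.4 and 5.86 CPM at P0 and 1.11, 1.5 and 8.41 CPM at P16. The cochlear ages did not overlap, with P0 high and P16 low, and the SOC libraries of P0 and P16 lay far below those of E16, with P16 replicate 3 inside the P0 range. Col2a1 was not called between E16 and P0 in the cochlea (1.23 ± 0.16 SE, adjusted p = 2.44e-04) and fell from P0 to P16 (-2.07 ± 0.16 SE, adjusted p = 1.40e-06). Its SOC change from E16 to P0 was -8.00 ± 0.77 (SE, adjusted p = 7.46e-06).

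Col11a1 and Col11a2 encode chains of type XI collagen, which copolymerises with type II. Col11a2 (chr17:34039437-34066685, plus strand) stood at 305, 402 and 310.3 CPM at E16, 1632, 1774 and 1796 CPM at P0 and 2347, 2164 and 2518 CPM at P16 in the cochlea. Its SOC levels were 1366, 1301, 1519 and 781 CPM at E16, 23.5, 36.5, 47.8 and 11.7 CPM at P0 and 43.5, 49.1 and 142 CPM at P16. In the cochlea its ages followed each other upward without overlap, and in the SOC the P16 libraries overlapped those of P0, with replicate 3 high. Col11a2 rose in the cochlea from E16 to P0 by 2.45 ± 0.14 (SE, adjusted p = 4.73e-06) and from E16 to P16 by 2.86 ± 0.14 (SE, adjusted p = 3.46e-08), while in the SOC the change from E16 to P16 was -3.73 ± 0.50 (SE, adjusted p = 3.75e-05). Col11a1 stood at 895, 784 and 849 CPM at E16, 1203, 938 and 1065 CPM at P0 and 991, 691 and 743 CPM at P16 in the cochlea, where no change was called. In the SOC it stood at 1594, 1706, 1692 and 1185 CPM at E16, 39.3, 51.5, 57.9 and 27.8 CPM at P0 and 8.36, 6.6 and 16.3 CPM at P16. The SOC ages did not overlap, and the change from E16 to P16 was -6.94 ± 0.37 (SE, adjusted p = 1.56e-08). The mean log2 ratio of Col11a2 to Col11a1 in the cochlea was -1.32 at E16, 0.70 at P0 and 1.55 at P16, and that of Col2a1 to Col11a2 was 3.73, 2.5 and 0.02.

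The type IX genes encode the FACIT collagen of cartilage fibrils. Col9a1 stood at 748, 775 and 722 CPM at E16, 1900, 1321 and 1488 CPM at P0 and 639.8, 372 and 359 CPM at P16 in the cochlea. Col9a2 stood there at 841, 1019 and 827 CPM at E16, 1638, 1729 and 1712 CPM at P0 and 430.2, 353 and 369 CPM at P16. Col9a3 stood there at 574, 659.6 and 575 CPM at E16, 1175, 955 and 1049 CPM at P0 and 550.4, 473 and 446 CPM at P16. All P0 libraries lay above those of E16 and P16 for each of the 3 genes. From E16 to P0 none of the 3 passed the fold threshold (changes of 1.15, 1.01 and 0.90). From P0 to P16, Col9a1 fell with a change of -1.79 ± 0.21 (SE, adjusted p = 2.87e-05) and Col9a2 with one of -2.16 ± 0.13 (SE, adjusted p = 1.60e-07), and Col9a3 was not called (-1.13 ± 0.12). In the SOC, Col9a1 stood at 1217, 959, 999 and 720.4 CPM at E16, 4.41, 5.96, 9.7 and 3.44 CPM at P0 and 4.85, 3.97 and 7.09 CPM at P16. Col9a2 stood at 838, 809, 991 and 402 CPM at E16, 53.4, 64.7, 63.1 and 25 CPM at P0 and 7.32, 7.98 and 23.4 CPM at P16, and Col9a3 at 783, 704, 841 and 442 CPM at E16, 31.8, 44.8, 40.6 and 23.6 CPM at P0 and 42.9, 46.4 and 106 CPM at P16. The 3 chains fell together from E16 to P0, with changes of -7.34, -3.84 and -4.26, and then parted, since Col9a2 fell again to P16 (-1.78 ± 0.42 SE, adjusted p = 0.00398, a call lost with GC-adjusted offsets and without SOC P0 replicate 2 or 3 or SOC P16 replicate 1 or 2) while Col9a1 and Col9a3 overlapped between P0 and P16. Of the exon bases of Col9a3, 6.07% overlap the opposite-strand gene Tcfl5, and whether counting used strand is not given in the sources used here.

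Col10a1, the collagen of hypertrophic cartilage, was low in the cochlea at 4.62, 5.9 and 3.8 CPM at E16, 11.6, 10.6 and 10.9 CPM at P0 and 8.23, 8.19 and 11.4 CPM at P16, with no call between any ages. Its SOC levels were 229.7, 213, 191 and 144 CPM at E16, 0.864, 1.11, 1.55 and 0.605 CPM at P0 and 0.199, 0.203 and 0 CPM at P16. The SOC levels were high at E16 and below 2 CPM later, and the 0 of P16 replicate 3 came from its absence from that joined table. Col10a1 fell from E16 to P0 with a change of -7.52 ± 0.36 (SE, adjusted p = 4.82e-08). The call from P0 to P16 was lost when that 0 was set to 20 counts (change of -1.17, adjusted p 0.0391), and the change from E16 to P16 was then -8.68 in place of -10.20.

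Markers of tissues around the brainstem were high at E16 in the SOC, as the collagens were. The summed level of 11 cartilage markers that are no collagens was 1069 to 2094 CPM at E16, 36.3 to 50 at P0 and 164 to 240 at P16, where Hapln1 (159 CPM) and Acan (34.1 CPM), also known from perineuronal nets, led. Skeletal muscle markers summed to 837 to 1755 CPM at E16, 17.3 to 30.1 at P0 and 3.82 to 6.03 at P16. Fibroblast and meningeal markers summed to 904 to 1308, 389 to 448 and 279 to 334 CPM, while vessel markers kept to 623 to 705, 477 to 517 and 574 to 703 CPM. The E16 ranges lay above all later ones for the cartilage, muscle and fibroblast markers, while the vessel ranges of E16 and P16 overlapped. Bone markers summed to 253 to 483, 28.8 to 32.3 and 195 to 288 CPM, with Bglap, Bglap2, Mepe and Sost at 0. The sums of cartilage and bone markers were thus higher at P16 than at P0, unlike the summed collagens. The bone sums of E16 and P16 did not rest on the same genes. Ibsp went from a mean of 241.1 CPM at E16 to 0.0938 CPM at P16, and Runx2 from 13.99 to 0.2539 CPM. Of 8 bone markers tested from E16 to P16, 4 were called lower and 1 higher. Whether the bone sum at P16 came from bone tissue was not tested. Single bone markers went both ways from P0 to P16, with 3 of 8 tested called higher, 2 lower and a median of -0.87. Of 11 cartilage markers, 4 were called higher and 2 lower, with a median of 1.91 (background 7.48% higher and 8.33% lower). SOC P16 replicate 3, high in collagens, had the lowest cartilage (164 CPM) and bone (195 CPM) sums of its age. It had the highest fibroblast (334 CPM), vessel (703 CPM) and muscle (6.03 CPM) sums of that age. SOC E16 replicate 4, low in collagens, had the lowest cartilage (1069 CPM) and vessel (623 CPM) sums but the highest bone (483 CPM) and fibroblast (1308 CPM) sums. The part of these tissues in the fall of SOC collagens was not tested, and whole heads were sectioned at E16 only, so age and dissection cannot be told apart. In the cochlea the same cartilage markers summed to 572 to 603 CPM at E16, 698 to 794 at P0 and 1404 to 1444 at P16, with Matn3 and 3110079O15Rik at 0 throughout. This sum was highest at P16, and that of the cartilage collagens at P0. Ucma (2.44 to 335 CPM) and Acan (13.8 to 313 CPM) rose from E16 to P16. From P0 to P16, 4 of 9 tested markers were called higher (background 14.5%) and 2 lower (background 10.4%), with a median of 0.31. The part of cartilage in the cochlear collagen levels was not tested.

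**Figure D4:**
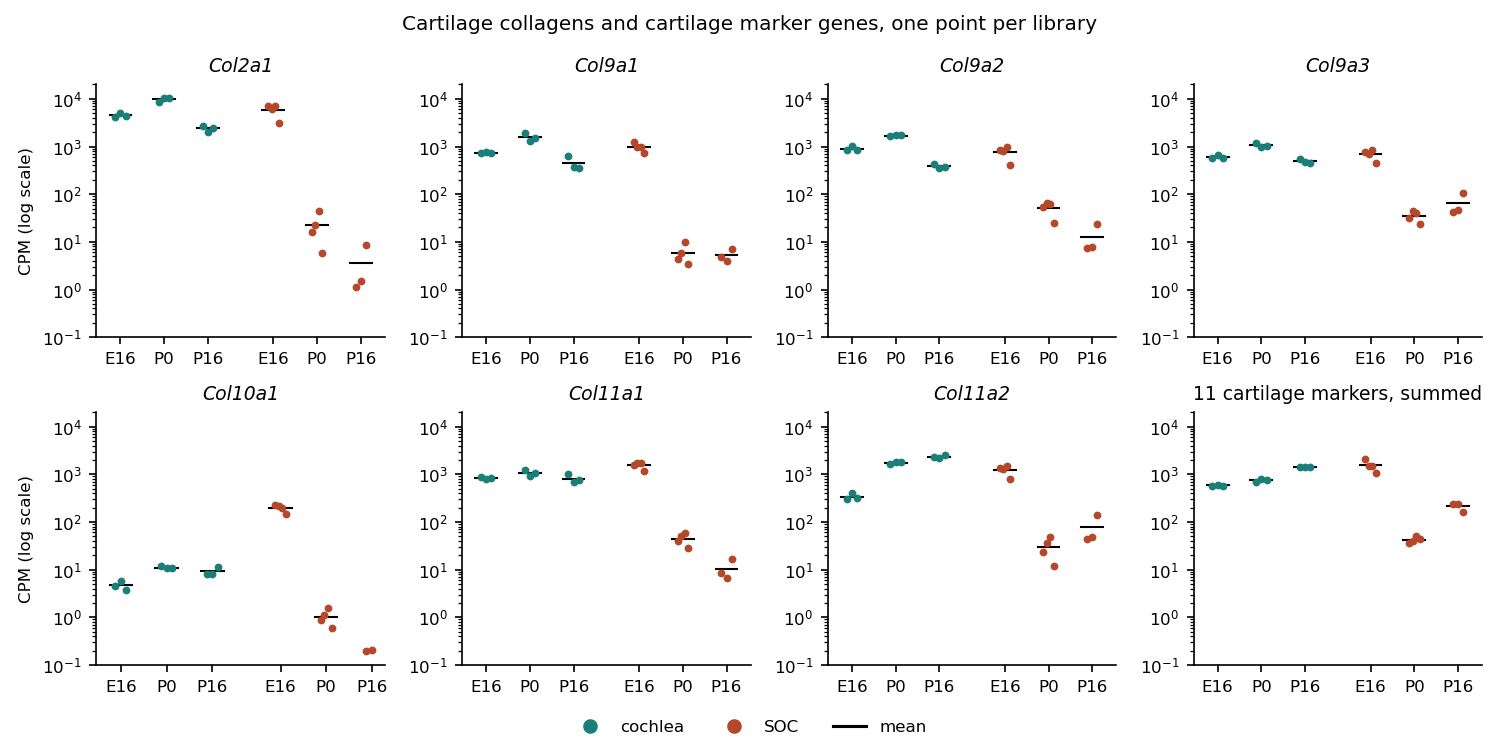
CPM of the 7 cartilage collagens and summed CPM of 11 other cartilage markers in each library by organ and age, on a log axis with lines at the group means. In the SOC the collagens dropped from E16 to P0 (Col2a1 from 3187 to 7107 CPM to 5.86 to 44.4 CPM), and Col10a1 at 0 in SOC P16 replicate 3 is not drawn.

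FACIT collagens outside type IX coat type I fibrils or mark special junctions. Col12a1, known from tendon and fascia, stood at 351, 421 and 353 CPM at E16, 225, 329 and 214 CPM at P0 and 33.2, 23.5 and 36 CPM at P16 in the cochlea and at 992, 992, 996 and 1281 CPM at E16, 51.4, 40.3, 45.3 and 38.6 CPM at P0 and 19.9, 15.8 and 33.3 CPM at P16 in the SOC. It was lowest at P16 in both organs, with E16 replicate 4 the highest SOC library although most collagens were lowest there. Col12a1 fell from E16 to P16 in the cochlea with a change of -3.53 ± 0.21 (SE, adjusted p = 1.39e-07) and in the SOC with one of -5.26 ± 0.24 (SE, adjusted p = 7.17e-09). Col14a1 and Col16a1 were not called from E16 to P16 in the cochlea (0.14 and -0.88) and fell in the SOC (-6.26 and -4.09). Between P0 and P16 Col16a1 was called lower in the cochlea (-2.14) and Col14a1 in the SOC (-1.37), the latter call being lost without SOC P0 replicate 1 or SOC P16 replicate 1 or 2.

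The other 3 FACIT members were low in level, and all were higher at P16 than at E16 in the mean of the cochlea. Col19a1, which neurons are known to make, stood at 0.368, 0.299 and 0.559 CPM at E16, 0.674, 0.32 and 0.385 CPM at P0 and 10.3, 8.43 and 6.06 CPM at P16 in the cochlea and at 3.7, 3.97, 3.78 and 4.47 CPM at E16, 4.75, 7.12, 8.46 and 9 CPM at P0 and 11.6, 12.3 and 11.4 CPM at P16 in the SOC. Its P16 libraries were the highest in both organs, and SOC P16 replicate 3 did not stand out. Col19a1 rose from E16 to P16 in the cochlea by 4.38 ± 0.32 (SE, adjusted p = 6.52e-07) and in the SOC by 1.87 ± 0.21 (SE, adjusted p = 8.67e-06). Col20a1 stood at 7.32, 7.05 and 7.49 CPM at E16, 5.52, 8.13 and 9.59 CPM at P0 and 8.2, 10.9 and 12.2 CPM at P16 in the cochlea, with no call. In the SOC it stood at 3.8, 4.06, 3.74 and 3.05 CPM at E16, 0.528, 0.601, 0.753 and 0.302 CPM at P0 and 6.41, 11.1 and 18.9 CPM at P16. The SOC libraries dipped at P0 and were highest at P16, without overlap between ages. Col20a1 fell there from E16 to P0 (-2.71 ± 0.32 SE, adjusted p = 4.14e-05) and rose from P0 to P16 (4.70 ± 0.34 SE, adjusted p = 3.63e-07). Col22a1, known from the junction of muscle and tendon, stood at 4.01, 5.04 and 3.72 CPM at E16, 6.23, 6.71 and 6.25 CPM at P0 and 19.3, 13.8 and 28.4 CPM at P16 in the cochlea and at 31.2, 32.6, 44.8 and 33.2 CPM at E16, 10.5, 8.65, 7.18 and 6.99 CPM at P0 and 1.51, 1.42 and 2.89 CPM at P16 in the SOC. Its levels were highest at P16 in the cochlea and at E16 in the SOC. From E16 to P16 it rose in the cochlea by 2.33 ± 0.24 (SE, adjusted p = 8.13e-06) and fell in the SOC with a change of -3.90 ± 0.24 (SE, adjusted p = 5.23e-08).

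Type IV chains moved in opposite directions in the cochlea. Basement membranes of most tissues are built from Col4a1 and Col4a2, while Col4a3, Col4a4 and Col4a5 make the network known from the mature kidney, lung and cochlea, and Col4a5 also pairs with Col4a6. The 6 genes lie in 3 head-to-head pairs whose starts face away from each other, on chromosomes 8, 1 and X of GRCm38. The annotated genes Col4a1 (minus strand) and Col4a2 (plus strand) overlap by 22 bases at their starts, shown because both transcripts begin there, and the capitals mark a GC box, GGGCGG.

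Col4a1 and Col4a2, chr8:11312805-11312826, plus strand: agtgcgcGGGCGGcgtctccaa

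Col4a4 (minus strand) and Col4a3 (plus strand) are 71 bases apart, at chr1:82586850-82586920, a gap that holds neither GGGCGG nor CCAAT nor TATAA on either strand. Col4a5 (plus strand) and Col4a6 (minus strand) on chromosome X start 1308 bases apart. Over RefSeq windows of 300 bases that span the transcription start (GRCm38), 34 of 43 members matched with 37 windows. GGGCGG was found in 59.46% of these and in 35.66% of all 32851 windows, CCAAT in 35.14% and 37.41%, and TATAA in 18.92% and 24.87%, each read on both strands.

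Col4a1 (chr8:11198423-11312826, minus strand) stood at 753, 784 and 827 CPM at E16, 707, 969 and 1002 CPM at P0 and 231, 219.8 and 219 CPM at P16 in the cochlea. Col4a2 (chr8:11312805-11449287, plus strand) stood there at 453, 578 and 482 CPM at E16, 521, 771 and 758 CPM at P0 and 192, 171 and 208 CPM at P16. Both were highest in level before hearing onset and lay lower in all P16 libraries. Between P0 and P16 Col4a1 fell with a change of -2.02 ± 0.15 (SE, adjusted p = 1.10e-06) and Col4a2 with one of -1.87 ± 0.18 (SE, adjusted p = 5.25e-06). Col4a3 (chr1:82586921-82722059, plus strand) stood at 0.45, 0.898 and 0.484 CPM at E16, 2.15, 2.45 and 1.8 CPM at P0 and 124, 95.7 and 109 CPM at P16 in the cochlea. Col4a4 (chr1:82448423-82586849, minus strand) stood there at 4.74, 4.7 and 3.76 CPM at E16, 14.5, 17 and 14.2 CPM at P0 and 143, 124 and 124 CPM at P16. The libraries of the 3 ages did not overlap for either gene, and E16 levels of Col4a3 were below 1 CPM. Col4a3 rose from E16 to P0 by 1.89 ± 0.25 (SE, adjusted p = 2.62e-04) and from P0 to P16 by 5.67 ± 0.20 (SE, adjusted p = 6.29e-09). Col4a4 rose by 1.88 ± 0.13 (SE, adjusted p = 1.33e-05) and 3.08 ± 0.13 (SE, adjusted p = 1.87e-08). Of the exon bases of Col4a3, 5.65% overlap the opposite-strand gene C430014B12Rik.

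Col4a5 (chrX:141475385-141689234, plus strand) stood at 80.2, 84.4 and 75.1 CPM at E16, 110.3, 110.3 and 117 CPM at P0 and 114, 119 and 107 CPM at P16 in the cochlea. Col4a6 (chrX:141165403-141474076, minus strand) stood there at 15.2, 17.7 and 12.7 CPM at E16, 16.3, 18 and 18.8 CPM at P0 and 9.78, 9.3 and 11.9 CPM at P16. Neither was called between any ages. The mean log2 ratio of Col4a5 to Col4a6 in CPM was 2.37 at E16, 2.64 at P0 and 3.40 at P16. The mean log2 level (CPM + 0.5) of Col4a3, Col4a4 and Col4a5 minus that of Col4a1 and Col4a2 was -6.38 ± 0.13 (SD, n = 3) at E16, -5.53 ± 0.29 at P0 and -0.81 ± 0.09 at P16. The mean log2 ratio of Col4a3 to Col4a4 was -2.16, -2.58 and -0.25 at these ages. Vessel markers summed to 650 to 690 CPM at E16, 537 to 635 at P0 and 546 to 637 at P16 in the cochlea, and their part in the changes of the type IV chains was not tested.

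In the SOC the 6 type IV chains were the class of more than 1 member with no call from E16 to P0 (background 6.3% lower and 3.14% higher). Their changes lay between -1.10 and 1.60. Col4a1 stood at 820.5, 792, 927 and 479 CPM at E16, 346, 409, 406 and 205 CPM at P0 and 103, 107 and 242 CPM at P16. Col4a2 stood at 269, 371, 399 and 157 CPM at E16, 144, 208, 203 and 73.6 CPM at P0 and 47, 49.3 and 126 CPM at P16. Replicate 4 was lowest at E16 and P0, and P16 replicate 3 was highest of its age for both. From E16 to P16 Col4a1 fell with a change of -2.06 ± 0.32 (SE, adjusted p = 1.10e-04) and Col4a2 with one of -1.75 ± 0.42 (SE, adjusted p = 0.00288). Col4a3 stood at 0.328, 0.692, 0.484 and 0.301 CPM at E16, 0.672, 1.71, 1.73 and 1.21 CPM at P0 and 2.19, 1.42 and 2.92 CPM at P16. Col4a4 stood at 0.609, 1.06, 1.01 and 1.38 CPM at E16, 1.39, 1.34, 1.37 and 2.27 CPM at P0 and 2.27, 2.35 and 2.32 CPM at P16. Both stayed below 3 CPM, with E16 and P16 libraries that did not overlap. They were called higher from E16 to P16, with changes of 2.55 ± 0.45 (SE, adjusted p = 3.42e-04) and 1.48 ± 0.34 (SE, adjusted p = 0.0023). Col4a5 stood at 90.8, 78, 87.9 and 63.8 CPM at E16, 60.5, 53.8, 48.8 and 38.1 CPM at P0 and 21.9, 19.2 and 42.1 CPM at P16, not called from E16 to P16 (-1.26 ± 0.23 SE, adjusted p = 3.92e-04), and Col4a6 at 22.7, 22.5, 27.1 and 15.9 CPM at E16, 18.7, 15.9, 14.6 and 12.9 CPM at P0 and 4.7, 2.59 and 9.34 CPM at P16, called lower (-1.72 ± 0.31 SE, adjusted p = 3.70e-04). The calls of Col4a2 and Col4a4 were lost with the joined table as a term in the fit, that of Col4a2 also without SOC P16 replicate 1 or 2, and that of Col4a4 also without SOC E16 replicate 1. The mean log2 level of Col4a3, Col4a4 and Col4a5 minus that of Col4a1 and Col4a2 was -6.56 ± 0.45 (SD, n = 4) at E16, -5.27 ± 0.56 (n = 4) at P0 and -4.06 ± 0.45 (n = 3) at P16.

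**Figure D5:**
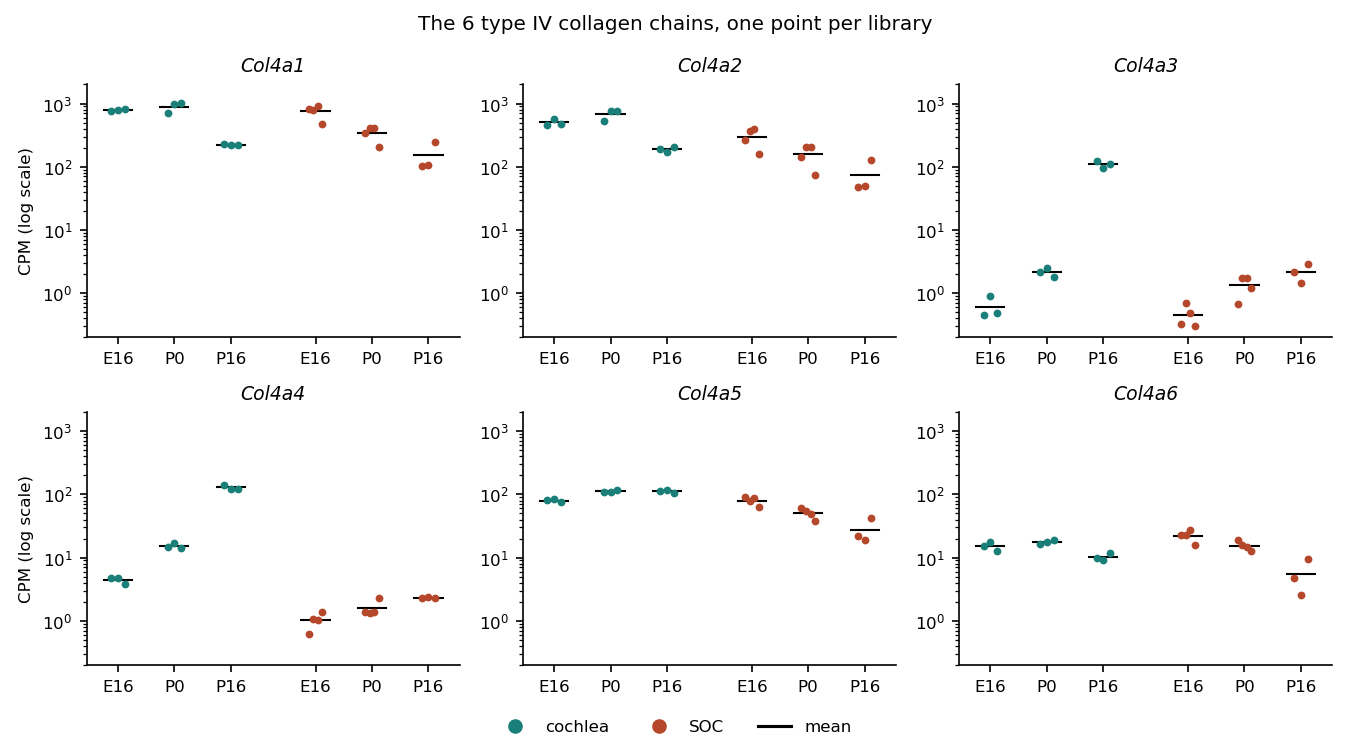
CPM of the 6 type IV collagen chains in each library by organ and age, on a log axis with lines at the group means. In the cochlea Col4a3 and Col4a4 climbed to 95.7 to 143 CPM at P16 while Col4a1 and Col4a2 came down to 171 to 231 CPM, and in the SOC Col4a3 and Col4a4 remained below 3 CPM.

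The multiplexins of the basement membrane zone went apart in the cochlea. Col18a1, the precursor of endostatin, stood at 543, 649 and 548 CPM at E16, 743, 836 and 951 CPM at P0 and 65.3, 67.6 and 62.8 CPM at P16 in the cochlea and at 166, 163, 185 and 88.5 CPM at E16, 41, 34.8, 30.9 and 21.3 CPM at P0 and 6.96, 7.7 and 28.5 CPM at P16 in the SOC. It was lowest at P16 in the cochlea without overlap, and in the SOC P16 replicate 3 lay within the P0 range. Col18a1 fell from P0 to P16 in the cochlea with a change of -3.71 ± 0.14 (SE, adjusted p = 1.26e-08) and from E16 to P0 in the SOC with one of -2.20 ± 0.38 (SE, adjusted p = 6.30e-04). Col15a1 stood at 63.1, 67 and 76.1 CPM at E16, 55.8, 72.9 and 72.5 CPM at P0 and 125, 116 and 117 CPM at P16 in the cochlea and at 45, 47.2, 45.3 and 28.8 CPM at E16, 4.89, 6.01, 5.01 and 4.76 CPM at P0 and 4.42, 3.89 and 12.3 CPM at P16 in the SOC. Its cochlear P16 libraries were the highest, although the change from E16 to P16 was not called (0.87 ± 0.14 SE, adjusted p = 2.85e-04), and in the SOC it fell from E16 to P0 (-2.96 ± 0.29 SE, adjusted p = 9.15e-06).

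Type VI chains assemble into beaded filaments around cells. In the cochlea all 4 members with counts were lower from P0 to P16 (background 10.4%), with a median of -2.67. Their summed level went from means of 613 CPM at E16 and 548 at P0 to 58.2 at P16. Col6a3, the longest chain, stood at 421, 461 and 399 CPM at E16, 261, 318 and 361 CPM at P0 and 17.4, 18 and 21.4 CPM at P16 in the cochlea and at 537, 427, 409.8 and 371 CPM at E16, 54.6, 44.4, 45.1 and 32.9 CPM at P0 and 15.2, 11 and 23.4 CPM at P16 in the SOC. In both organs its ages did not overlap. Col6a3 fell from E16 to P16 in the cochlea with a change of -4.43 ± 0.16 (SE, adjusted p = 5.64e-09) and in the SOC with one of -4.44 ± 0.26 (SE, adjusted p = 2.94e-08). Col6a1 stood at 80.5, 89.1 and 66.9 CPM at E16, 73.5, 137 and 88.3 CPM at P0 and 22.7, 16.1 and 21.9 CPM at P16 in the cochlea and at 311, 223, 253 and 135 CPM at E16, 63.3, 50, 55.8 and 37.5 CPM at P0 and 9.11, 7.57 and 31.1 CPM at P16 in the SOC. Col6a2 stood at 96.7, 119 and 88.8 CPM at E16, 92.7, 165 and 123 CPM at P0 and 16.4, 13.4 and 18.9 CPM at P16 in the cochlea and at 189, 160.5, 173 and 107 CPM at E16, 44.7, 33.7, 32.3 and 17.9 CPM at P0 and 15.4, 13.2 and 36.9 CPM at P16 in the SOC. Both were low in all cochlear P16 libraries, and SOC P16 replicate 3 lay near or within the P0 range. From E16 to P16 Col6a1 fell with changes of -1.89 ± 0.23 (cochlea) and -3.61 ± 0.44 (SOC), and Col6a2 with changes of -2.58 ± 0.22 and -2.58 ± 0.36. Col6a6 was called lower from P0 to P16 in both organs (-1.41 and -3.25), the cochlear call being lost with GC-adjusted offsets and the SOC value resting in part on a 0 of the joined table. With that 0 set to 20 counts the SOC change was -1.76 from P0 to P16, still called lower, and -4.67 in place of -6.17 from E16 to P16. Col6a4 stood at 0.609, 0.646, 0.659 and 0.86 CPM at E16, 1.97, 1.29, 2.17 and 0.945 CPM at P0 and 0.0796, 0.446 and 0 CPM at P16 in the SOC, with no call.

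Among the network-forming collagens, Col8a1 and Col8a2 encode the chains of type VIII, known from vessel walls and the cornea. Col8a1 stood at 14.2, 23 and 16 CPM at E16, 39.4, 47.4 and 32.9 CPM at P0 and 146, 123 and 154 CPM at P16 in the cochlea and at 84.8, 103, 87.7 and 102 CPM at E16, 27.5, 18.4, 24.8 and 21.9 CPM at P0 and 12.6, 8.51 and 16 CPM at P16 in the SOC. The cochlear ages climbed without overlap, and the SOC ages descended without overlap. Col8a1 rose from E16 to P16 in the cochlea by 3.06 ± 0.19 (SE, adjusted p = 2.34e-07) and fell in the SOC with a change of -2.64 ± 0.20 (SE, adjusted p = 2.70e-07). Col8a2 stood at 56.3, 82.4 and 61.9 CPM at E16, 128, 142 and 115 CPM at P0 and 34.1, 35.6 and 35.6 CPM at P16 in the cochlea and at 239, 208, 241 and 201 CPM at E16, 22.6, 13.9, 10.6 and 12.9 CPM at P0 and 2.86, 2.23 and 7.17 CPM at P16 in the SOC. It was high at P0 in the cochlea and at E16 in the SOC. Col8a2 fell from P0 to P16 in the cochlea (-1.89 ± 0.14 SE, adjusted p = 1.13e-06) and from E16 to P0 in the SOC (-3.85 ± 0.31 SE, adjusted p = 1.80e-06).

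Transmembrane collagens are anchored in the plasma membrane of the cell that makes them. Col25a1, which neurons are known to make, stood at 184, 154 and 167 CPM at E16, 201, 173 and 146 CPM at P0 and 44.5, 45.3 and 37.8 CPM at P16 in the cochlea and at 52, 59.4, 49.5 and 60.2 CPM at E16, 47.9, 49.2, 54.3 and 49.6 CPM at P0 and 48.3, 52.3 and 55.1 CPM at P16 in the SOC. The SOC libraries of all ages overlapped, and the cochlear libraries of P16 lay below the others. Col25a1 fell in the cochlea from E16 to P16 with a change of -1.91 ± 0.13 (SE, adjusted p = 4.11e-07) and was not called in the SOC (0.21 ± 0.12 SE, adjusted p = 0.156). Col23a1 stood at 79.6, 85.8 and 84 CPM at E16, 84.3, 95.9 and 97.5 CPM at P0 and 47.3, 49.7 and 43.7 CPM at P16 in the cochlea and at 55.5, 64.6, 67.4 and 38.2 CPM at E16, 34.9, 35.6, 41.9 and 22.5 CPM at P0 and 7.16, 6.56 and 14.2 CPM at P16 in the SOC. It was lowest at P16 in both organs. Its change from E16 to P16 was -0.75 ± 0.11 in the cochlea, not called, and -2.32 ± 0.28 in the SOC, called lower. Col13a1, known from neuromuscular junctions, stood at 16.1, 18.4 and 16.6 CPM at E16, 10.7, 12.5 and 11.9 CPM at P0 and 28.9, 27.2 and 23.7 CPM at P16 in the cochlea and at 9.56, 14.7, 14.4 and 7.35 CPM at E16, 2.54, 3.56, 3.94 and 1.66 CPM at P0 and 1.11, 0.567 and 3.89 CPM at P16 in the SOC. In the cochlea it was lowest at P0, with no call, and in the SOC it fell from E16 to P0 (-1.93 ± 0.43 SE, adjusted p = 0.004), a call lost without SOC E16 replicate 2 or 3 or SOC P0 replicate 1 or 4. Col17a1, known from the hemidesmosomes of skin, was not called in the cochlea at 1.54 to 3.25 CPM and fell in the SOC from E16 to P0 (-3.91 ± 0.53 SE, adjusted p = 9.80e-05).

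The remaining members included some of the largest cochlear changes. Col28a1, known from peripheral nerve, stood at 1.96, 2.14 and 1.94 CPM at E16, 5.31, 5.47 and 4.91 CPM at P0 and 26.9, 19.6 and 14.7 CPM at P16 in the cochlea and at 3.8, 4.43, 6.07 and 5.03 CPM at E16, 5.61, 8.41, 7 and 4.42 CPM at P0 and 2.19, 2.27 and 1.85 CPM at P16 in the SOC. The cochlear ages climbed without overlap. Col28a1 rose from E16 to P0 by 1.46 ± 0.22 (SE, adjusted p = 6.10e-04) and from E16 to P16 by 3.41 ± 0.22 (SE, adjusted p = 2.92e-07) in the cochlea and was not called in the SOC. Schwann cell markers in the cochlea summed to 271 to 389 CPM at E16, 352 to 505 at P0 and 5897 to 6380 at P16, and their part in the result was not tested. In the SOC the same list, which holds myelin genes such as Mbp that oligodendrocytes also make, summed to 11892 to 12813 CPM at P16. Col26a1 stood at 252, 299 and 273 CPM at E16, 200.4, 242 and 231 CPM at P0 and 19.1, 20.6 and 20.3 CPM at P16 in the cochlea and at 145, 124, 138 and 78.7 CPM at E16, 56.2, 53.1, 46.9 and 26.7 CPM at P0 and 2.23, 2.59 and 7.74 CPM at P16 in the SOC. Its P16 libraries were far below all earlier ones in both organs. Col26a1 fell from E16 to P16 in the cochlea with a change of -3.71 ± 0.13 (SE, adjusted p = 4.36e-09) and in the SOC with one of -4.59 ± 0.42 (SE, adjusted p = 1.27e-06). Col7a1, the anchoring fibril collagen of skin, stood at 24, 30.9 and 19.4 CPM at E16, 22.7, 24.9 and 26 CPM at P0 and 17, 15.9 and 15.5 CPM at P16 in the cochlea and at 7.5, 7.25, 7.17 and 3.87 CPM at E16, 2.3, 4.58, 3.68 and 1.59 CPM at P0 and 0.477, 0.648 and 2.89 CPM at P16 in the SOC, where it was called lower from E16 to P16 (-2.0 ± 0.52 SE, adjusted p = 0.00524). That call was lost without any 1 of SOC E16 replicates 1 to 3 or SOC P16 replicates 1 and 2, and no change was called in the cochlea.

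The change from E16 to P16 differed between the organs for most collagens. In a fit over all 20 libraries, where a difference was called at an adjusted p under 0.01 and a ratio of the folds over 2.5, the change was higher in the cochlea than in the SOC for 31 of 42 members (background over 16467 genes 12.8%) and lower for 2, Col20a1 and Col25a1 (background 6.28%), with a median difference of 3.25 against 0.05 over all genes. All 11 fibrillar members, 8 of 9 FACIT members and all 3 members of types VIII and X were among the 31, but only 1 of 4 type VI chains and 3 of 6 type IV chains. The difference was 9.58 ± 0.91 (SE, adjusted p = 1.38e-07) for Col2a1, 6.63 ± 0.60 (SE, adjusted p = 7.25e-08) for Col11a2 and 5.05 ± 0.50 (SE, adjusted p = 2.26e-07) for Col4a3. For Col20a1 it was -1.36 ± 0.40 (SE, adjusted p = 0.00982) and for Col25a1 -2.07 ± 0.17 (SE, adjusted p = 1.65e-08). The call of Col20a1 was lost with DESeq2 size factors, upper-quartile factors or the replicate number as a block, and without any of 12 single libraries. From P0 to P16, 9 members had a higher change in the cochlea (background 9.83%) and 8 a lower one (background 7.14%), with a median of 0.30 against 0.04. The difference was also called for Col4a3 (4.78 ± 0.40 SE, adjusted p = 3.61e-08) and Col4a4 (2.37 ± 0.29 SE, adjusted p = 3.48e-06) from P0 to P16, and for Col20a1 in the other direction (-4.24 ± 0.44 SE, adjusted p = 4.48e-07). With the replicate number as a block, 14 members had a higher change from P0 to P16.

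The miR-29 family is known to target collagen messages, and its seed is shown because many members carry its match. The mature sequences (RefSeq) share the seed at bases 2 to 8, marked in capitals.
mmu-miR-29a-3p: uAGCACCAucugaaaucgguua
mmu-miR-29b-3p: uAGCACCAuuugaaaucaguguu
mmu-miR-29c-3p: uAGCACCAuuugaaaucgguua
Of the 43 collagens, 25 (58.14%) held TGGTGCT, the match to this seed, in their longest annotated 3′ untranslated region, against 2407 of 16119 protein-coding genes (14.93%). The median length of that region was 1016 bases in collagens and 1132 in the protein-coding genes. Col4a3, Col5a1 and Col26a1 held 4 matches each and Col4a5 and Col5a3 held 3. Sites from genes whose courses differed are shown 5′ to 3′ on the transcript's strand in GRCm38, with the match in capitals.
Col1a1, chr11:94952524-94952546, plus strand: tgggaaggaatttcTGGTGCTat
Col3a1, chr1:45348968-45348990, plus strand: tcaaaatgtctcaaTGGTGCTat
Col4a1, chr8:11199760-11199782, minus strand: ccaccgtcacaacaTGGTGCTac
Col4a5, chrX:141688239-141688261, plus strand: actgctcccaccaaTGGTGCTaa
The members with a match had a median change from E16 to P16 of -0.54 in the cochlea and -3.38 in the SOC, while those without one had medians of -0.23 and -3.44. A match is a description of the sequence, and no level of miR-29 was analysed here.

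Genes that make and handle collagen were read from lists of their own. Of 21 enzymes and chaperones that modify collagen chains, 12 were lower in the SOC from E16 to P0 (background 6.3%), with a median of -1.87. In the cochlea 7 of 21 were lower (background 9.51%) and 1 higher (background 14.8%) from E16 to P16. Serpinh1, the chaperone of newly made collagen, went from a mean of 702 to one of 198 CPM in the cochlea, with a change of -1.76 ± 0.17 (SE, adjusted p = 5.34e-06). In the SOC it went from 973 to 53.4 CPM, with a change of -3.91. P4ha3, a subunit of a prolyl hydroxylase of collagen, fell in the cochlea (change of -2.34), and P3h3, of the same kind of enzymes, fell in the SOC (-3.64). Of 15 genes for procollagen processing and cross-linking, 4 were lower and 2 higher in the cochlea from E16 to P16, and in the SOC 9 were lower (background 13.8%). Pxdn, the peroxidase that links type IV chains, fell in the cochlea from 376 to 32.9 CPM with a change of -3.45. Tll2, a tolloid-like proteinase, fell there from 28.6 to 1.63 CPM (change of -4.07), and Loxl4, a cross-linking oxidase, fell in the SOC from 17.5 CPM to a mean of 0.12 CPM, near the floor.

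For the lists that follow, the shares of all genes called from E16 to P16 were 14.8% higher and 9.51% lower in the cochlea and 11.7% higher and 13.8% lower in the SOC, and several counts lie near them. Of the degradation genes, 3 of 13 were higher and 1 lower in the cochlea from E16 to P16, and 1 of 12 higher and 6 lower in the SOC. Mmp16, a membrane-bound metalloproteinase, fell in the cochlea from 168 to 16.1 CPM with a change of -3.30, and Mmp2, a gelatinase, fell in the SOC from 211 to 9.31 CPM with one of -4.22. Of the collagen receptors, 2 of 10 were higher and 2 lower in the cochlea, and 1 of 9 higher and 4 lower in the SOC. The integrins Itga10 and Itga11, both receptors for collagen, went opposite ways in the cochlea, with changes of 3.19 and -2.16, and Itga11 fell in the SOC with one of -4.56. Other basement membrane proteins numbered 4 higher and 3 lower of 15 in the cochlea, where the laminin chain Lamc3 rose from 8.25 to 105 CPM (change of 3.74), and 6 lower in the SOC. The nidogen Nid2 and the laminin chain Lamb1 were among the latter (changes of -3.47 and -3.07). Small proteoglycans and other partners of fibrils numbered 4 higher and 2 lower of 14 in the cochlea, and in the SOC 11 were lower. The fibril partner Tnxb rose in the cochlea from 2.76 to 45.9 CPM (change of 4.13). Among 6 proteins of the tectorial membrane, 2 were higher and 1 lower in the cochlea, where Ceacam16 went from 0.322 to 1279 CPM and Tecta from 1560 to 6.22 CPM (change of -7.91). Their summed level was 2510 to 2593 CPM at E16, 4903 to 6274 at P0 and 1960 to 3216 at P16, highest at P0 as Col2a1 was.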

How the data were processed

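RNA from pooled mouse cochleae and SOCs was sequenced in 20 libraries. The deposited values are raw read counts per gene, made by the authors with STAR 2.5.3a on mm10 and a GENCODE annotation; per the submitters' processing notes HTSeq and DESeq2 were also used, while the annotation version and strand use are not given in the sources used here. From these counts, edgeR 4.0.16 (R 4.3.3; TMM, quasi-likelihood F test, Benjamini-Hochberg over all genes with a count) was fitted over the 3 ages of an organ, or over 6 groups for the difference between organs. Libraries are pools of several animals, and no pools agreed within sampling noise. DESeq2 1.42.0, other filters and scalings, GC adjustment and left-out libraries were alternatives. Same-numbered SOC E16 and P0 libraries deviated together (correlations 0.484 to 0.76), those of other comparisons did not all do so. Some SOC libraries of unlike number did so as strongly (0.633 for E16 replicate 3 with P0 replicate 2, 0.555 for E16 replicate 2 with P0 replicate 3). The correlations thus did not establish pairs. Genes given library by library were the 3 members of each class highest in mean CPM, the 3 with the largest called change from E16 to P16 in each direction and organ, those called in opposite directions and all type IV and cartilage members; of each other list, the genes with the largest called change were named. The members, classes and lists were chosen with earlier results of these data known. Scripts were tested on simulated data. Intervals and floors cover counting error only.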

Additional observations from a re-analysis of the deposited data

Results flagged for a closer look

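A single library stood far from the rest of its group for 7 of the 86 gene and group pairs tested, where chance gives about 4.3. The pairs were the 43 members in SOC E16 and in SOC P0, the groups of 4 libraries, so the groups of 3 libraries were not screened. The pairs are not independent, since most collagens were lowest in replicate 4 of both groups. In SOC E16 replicate 4, Col1a2 (1387 CPM, others 2145 to 2266), Col7a1 (3.87 CPM, others 7.17 to 7.50) and Col15a1 (28.8 CPM, others 45.0 to 47.2) were low and Col12a1 (1281 CPM, others 992 to 996) was high. In SOC E16, Col6a6 was high in replicate 1 (16.8 CPM, others 9.98 to 10.7) and Col22a1 in replicate 3 (44.8 CPM, others 31.2 to 33.2). In SOC P0 replicate 4, Col4a4 was high (2.27 CPM, others 1.34 to 1.39) although most collagens were lowest there.

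The change with age differed between cochlea and SOC by edgeR's test of the difference for 33 members from E16 to P16 and for 17 from P0 to P16, given as cochlear minus SOC log2 change. From E16 to P16 it was among the fibrillar collagens 5.55 for Col1a1, 4.94 for Col1a2, 9.58 for Col2a1, 2.72 for Col3a1, 3.42 for Col5a1, 3.27 for Col5a2, 2.34 for Col5a3, 6.99 for Col11a1, 6.63 for Col11a2, 4.07 for Col24a1 and 6.07 for Col27a1. Among the FACIT collagens it was 6.64 for Col9a1, 4.51 for Col9a2, 2.97 for Col9a3, 1.77 for Col12a1, 6.45 for Col14a1, 3.25 for Col16a1, 2.56 for Col19a1 and 6.27 for Col22a1. In the other classes it was 5.05 for Col4a3, 3.53 for Col4a4, 1.88 for Col4a5, 5.35 for Col6a6, 5.75 for Col8a1, 4.68 for Col8a2, 11.29 for Col10a1, 3.11 for Col13a1, 3.24 for Col15a1, 3.08 for Col17a1, 1.61 for Col23a1 and 4.36 for Col28a1. The opposite sign was found with -1.36 for Col20a1 and -2.07 for Col25a1. From P0 to P16 the difference was 4.78 for Col4a3, 2.37 for Col4a4, 2.53 for Col8a1, 2.49 for Col10a1, 1.49 for Col11a1, 3.30 for Col19a1, 3.57 for Col22a1, 1.95 for Col24a1 and 3.35 for Col28a1. It was negative with -2.60 for Col6a2, -2.83 for Col6a3, -1.83 for Col9a1, -2.18 for Col9a3, -2.31 for Col12a1, -2.71 for Col18a1, -4.24 for Col20a1 and -2.27 for Col25a1. Of these, the value for Col10a1 from P0 to P16 was no longer called when the 0 of SOC P16 replicate 3 was set to 20 counts. The values from E16 to P16 for Col10a1 and Col6a6 also rest in part on such a 0. With it set to 20 counts, their SOC changes were -8.68 and -4.67 in place of -10.20 and -6.17. The tissue dissected with the SOC at E16 and later differed, so dissection and age cannot be told apart.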

How the results depend on the processing

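No result reversed under any setting run. Of 178 calls of single collagen genes, 50 were lost under at least 1 setting, and 11 under a setting other than a test against the fold threshold (glmTreat) or leaving out a library. With glmTreat against 2.5-fold, the counts were 1 higher in the cochlea from E16 to P0, 1 lower in the SOC from P0 to P16, 0 higher in the SOC from E16 to P16 and, for the difference between organs, 1 lower from E16 to P16 and 4 lower from P0 to P16. With a fold over 2, 11 members were higher in the cochlea from E16 to P0, and with overlap of libraries allowed, 2 were higher in the SOC from P0 to P16. The difference between organs from E16 to P16 was lower for 1 member, Col25a1, with DESeq2 size factors, upper-quartile factors, genes with counts in every joined table or the replicate block. Leaving out each library in turn gave 4 to 7 members higher in the cochlea from E16 to P0 (7 without cochlea E16 replicate 2), 0 to 1 higher in the SOC from E16 to P0 (1 without SOC P0 replicate 1), 1 to 2 higher (2 without SOC P0 replicate 3 or SOC P16 replicate 1) and 7 to 22 lower in the SOC from P0 to P16 (7 without SOC P16 replicate 1 and 22 without SOC P16 replicate 3), and 1 to 2 lower for the difference from E16 to P16. The summed level of transmembrane collagens in the SOC at P16 was 73.3 CPM with effective library sizes in place of 63.9, and the type IV chain ratio in the cochlea at E16 was -6.65 with a pseudocount of 0.1 CPM in place of -6.38. With the replicate number as a block, the difference between organs from P0 to P16 was higher for 14 members in place of 9. For SOC E16 and P0, where same-numbered libraries deviated together, as did some of unlike number, the block left 30 members lower and 0 higher. In the other comparisons same-numbered libraries did not all deviate together (correlations -0.381 to 0.688 in the cochlea), and there the block moved no other count by over 1.5 times. With the joined table as a term, 30, 14 and 33 members were lower in the SOC from E16 to P0, P0 to P16 and E16 to P16. With only replicates 1 to 3 of SOC E16 and P0, chosen after seeing the data, they were 30, 17 and 34. The call of Col26a1 in the SOC from E16 to P0 was lost without any of 7 single libraries, and those of Col5a1 and Col6a1 from P0 to P16 without most. The cause of these shifts was not tested. Levels at or below 0.96 CPM in a library where a gene is at 0 could not be told from absence.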
